A study of Mus musculus with 8 samples.

Results

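Striated muscle myosin light chains and the kinases that phosphorylate them were followed in mouse esophagi with and without monoacylglycerol lipase (MGL), the enzyme that degrades the endocannabinoid 2-arachidonoylglycerol. The 10 genes were taken by symbol from the 32849 listed, namely the regulatory light chains Mylpf, Myl10, Myl7 and Myl2, the essential light chains Myl3, Myl1 and Myl4, and the kinases Mylk2, Mylk4 and Mylk3. All 10 had at least 1 count, and 9 passed the filter on low counts and were tested, the exception being Myl2. The group was chosen by symbol with the fold change of Myl10 in these libraries known, since Myl10 is among the genes that the study lists as differing between the genotypes. Differences between MGL KO and WT are therefore given for these genes as a description.

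The libraries came from esophagi of healthy mice, 4 of MGL KO and 4 of WT genotype, kept frozen before extraction, and represent polyadenylated RNA. The MGL KO mice lack Mgll in every cell and were bred in the study's own facility with WT littermates. The labels name no other allele, agent or treatment for either group. The study states a young adult age range for the male and female mice of its experiments in general, but not the sex or age behind each library. Whether each library is a separate animal is not spelled out in the labels either, so p-values measure the spread between these samples.

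A sarcomeric myosin molecule carries a regulatory and an essential light chain on the neck of each heavy chain, which stiffen the lever arm and tune the force and speed of the crossbridge. Each fiber type draws on its own genes, with Mylpf and Myl1 in fast fibers, Myl2 and Myl3 in slow fibers and heart ventricle, and Myl7 and Myl4 in heart atrium. Light chain kinases, activated by calmodulin, phosphorylate the regulatory chain and thereby raise force at a given calcium level. The mouse esophagus has a muscle wall that is striated along its length, so that skeletal muscle transcripts are abundant in bulk tissue.

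The genes of each family resemble one another, which matters for how far reads can tell them apart. Within the regulatory chains, coding sequences of the GENCODE reference transcripts were identical at 65.9% to 75.0% of aligned bases, the closest pair being Myl10 and Mylpf over 440 bases. The essential chains were identical at 73.6% to 78.1% and the kinases at 68.1% to 68.8%. The longest runs of coding sequence that the closest pairs share are shown, since a coding read that matches both genes exactly would have to fit within one.
Myl10 and Mylpf, 23 bases: gtcttcctgaccatgtttgggga
Myl3 and Myl4, 29 bases: gaggacttcgtggaggggctgcgggtctt

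The 150 bases before the start of the reference transcript are shown for 3 regulatory chains at the extremes of expression described further on, namely Mylpf with the highest level, Myl7 with a high level in 1 library, and Myl2 close to 0. Capitals mark CAGCTG, an E-box, which reads alike on both strands, and a CArG box. The windows lie at chr7:126810630-126810779 (forward strand) for Mylpf, chr11:5848793-5848942 (reverse strand) for Myl7 and chr5:122238698-122238847 (forward strand) for Myl2, on GRCm39, and hold no annotated exon base.
Mylpf: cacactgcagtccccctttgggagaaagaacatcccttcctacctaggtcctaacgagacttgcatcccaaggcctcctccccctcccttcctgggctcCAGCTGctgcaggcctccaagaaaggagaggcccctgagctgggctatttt
Myl7: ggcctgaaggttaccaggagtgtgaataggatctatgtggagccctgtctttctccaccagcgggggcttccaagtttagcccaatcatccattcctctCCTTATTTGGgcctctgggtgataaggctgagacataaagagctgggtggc
Myl2: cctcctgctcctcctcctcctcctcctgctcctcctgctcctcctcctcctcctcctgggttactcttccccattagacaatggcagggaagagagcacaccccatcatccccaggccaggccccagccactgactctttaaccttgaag

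Both strands of the 250 bases before the start were searched for CAGCTG, the MEF2 motif, the CArG box and TATAAA, where the last 3 can overlap one another. CAGCTG was present for Mylpf, 51 bases before the start, and for Myl1, 37 bases before it, and in 12.1% of 19348 gene promoters of the same length. A CArG box was present for Myl7, 51 bases before the start, and for Myl3, 48 bases before it, and in 1.36% of promoters. Neither TATAAA, present in 10.6% of promoters, nor the MEF2 motif, present in 1.47%, occurred in these windows of the 10 genes. Not all windows were free of annotated exons. Of the 150 bases nearest the start, exons covered 103 for Myl1, 94 for Myl3, 80 for Myl4, 146 for Myl10 and 5 for Mylk3. These matches describe letters in the window only.

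The deposited counts summed to between 13479069 and 17090152 per library. Expression is given as normalized CPM, the counts scaled to a common library size over the kept genes with TMM factors. A gene with 0 counts could still be present at up to 3 counts by counting error alone, or 0.167 to 0.271 normalized CPM. Mgll was at 13.7 ± 1.54 normalized CPM (SD, n = 4) in MGL KO and 81.2 ± 9.97 (SD, n = 4) in WT, and its reduction passed edgeR's quasi-likelihood test (log2 fold change -2.57, standard error 0.13, adjusted p = 0.000133). Only 7 of 14864 genes tested, 0.0471%, passed an adjusted p of 0.05. MGL KO replicate 4 stood apart from the rest. A sum over 8 airway markers reached 5254 normalized CPM there against 9.48 to 47.3 in the other 7 libraries, and a sum over 9 cardiac muscle markers reached 1457 against 6.91 to 22.6. The amount of muscle also varied, the sum over 12 fast fiber markers running from 23083 to 53436 in MGL KO and from 32724 to 49599 in WT, and the 6 squamous epithelial markers were at their lowest in the libraries with the highest fast fiber sums (3997 in MGL KO replicate 2 and 4551 in WT replicate 3). In bulk tissue, fewer cells of a type and less RNA per cell cannot be told apart.

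**Figure D1:**
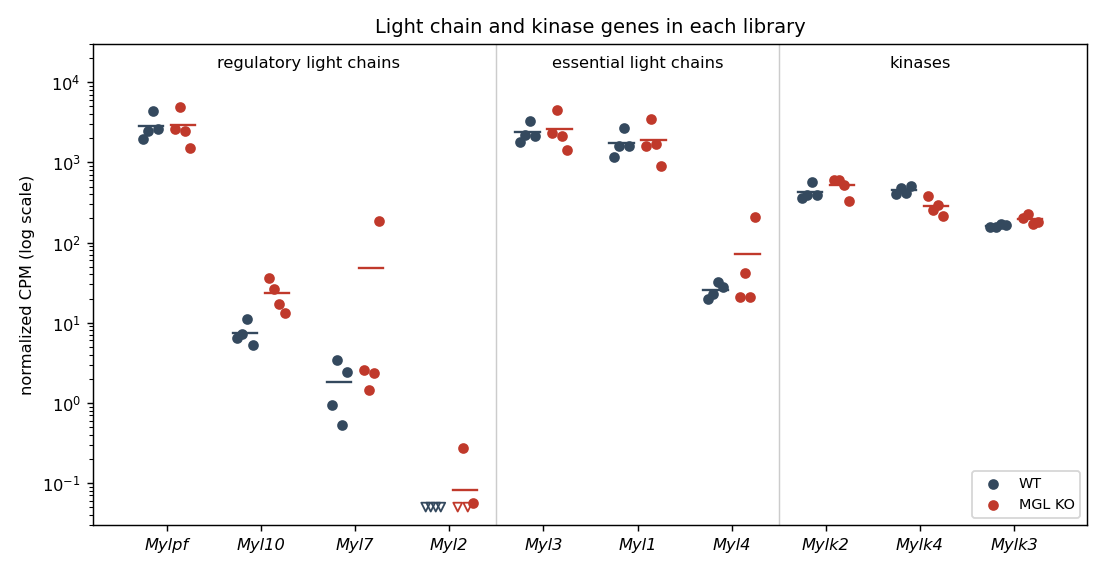
Normalized CPM (log scale) of the 10 genes in the 4 WT (dark) and 4 MGL KO (red) libraries, with a horizontal bar at each group mean and open triangles at the lower edge for libraries with 0 counts. The MGL KO libraries lie above WT for Myl10 and Mylk3 and below WT for Mylk4, a single MGL KO library carries the high Myl7 and Myl4 values, and Myl2 is at 0 in all WT libraries.

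Per transcript length, the fast regulatory chain led in both groups. On the scale of TPM (counts divided by the length of the union of a gene's exons and scaled to a common total), median levels in WT were 11752 for Mylpf, 3990 for Myl3, 3306 for Myl1, 378 for Mylk2, 310.3 for Mylk4, 148 for Mylk3, 22.1 for Myl4, 17.5 for Myl10, 3.80 for Myl7 and 0 for Myl2. Neighbors in this order whose WT ranges overlapped were Myl3 and Myl1, Mylk2 and Mylk4, and Myl4 and Myl10. The other neighbors were separated in the 4 WT libraries.

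In MGL KO the median TPM was 11402 for Mylpf, 3996 for Myl3, 3318 for Myl1, 496 for Mylk2, 182 for Mylk4, 174 for Mylk3, 50.1 for Myl10, 23.9 for Myl4, 5.35 for Myl7 and 0.042 for Myl2. Myl10 thus stood ahead of Myl4 in MGL KO and behind it in WT, although the TPM ranges of this pair overlapped in both groups. Myl3 and Myl1, Mylk4 and Mylk3, and Myl4 and Myl7 also had overlapping ranges in MGL KO. With the length of the canonical transcript, an alternative chosen after the data were seen, 4 ranks differed in MGL KO, where Mylk3 came before Mylk4 and Myl4 before Myl10, and the ranges of Mylpf and Myl3 then overlapped in both groups. With the longest transcript the order was unchanged, and these ranges overlapped in MGL KO.

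Mylpf, the regulatory chain of fast fibers, lies at chr7:126807207-126813470 on the forward strand. Its normalized CPM was 2616, 4971, 2491 and 1522 in MGL KO replicates 1 to 4 and 1969, 2482, 4417 and 2645 in WT replicates 1 to 4. The groups overlapped over most of their range, MGL KO holding both the highest and the lowest library. The means were 2900 ± 1465 in MGL KO and 2878 ± 1065 in WT (SD, n = 4), and the fitted log2 difference was 0.01 (standard error 0.38). The sign depended on single libraries, since the log2 fold change was -0.38 without MGL KO replicate 2 and 0.30 without WT replicate 3. Of the exon bases of Mylpf, 29.4% are shared with Septin1 or Tbc1d10b on the opposite strand, and how the counting treated such reads is not given in the sources used here.

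Myl10, a regulatory chain first described in lymphocyte precursors, lies at chr5:136718153-136730711 on the forward strand. Its reads numbered 585, 293, 279 and 236 in MGL KO replicates 1 to 4 and 114, 126, 167 and 80 in WT replicates 1 to 4. In normalized CPM these were 35.8, 26.4, 17.2 and 13.3 in MGL KO and 6.36, 7.19, 11.0 and 5.22 in WT. Every MGL KO library was above every WT library, as for 2.72% of all genes tested, the gap between MGL KO replicate 4 and WT replicate 3 being the narrowest. The means were 23.2 ± 10.1 in MGL KO and 7.44 ± 2.50 in WT (SD, n = 4), a fitted difference of 3.11-fold.

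The log2 fold change of Myl10 was 1.64 (standard error 0.35), and edgeR's quasi-likelihood test gave an adjusted p of 0.300, which is above 0.05. The adjusted p was 0.00639 in edgeR's exact test, the test the study's methods name, 0.00182 in DESeq2 and 0.0868 in limma-voom with quality weights, and lay between 0.00182 and 0.769 over all alternatives. With 1 library left out, the log2 fold change stayed between 1.35 (without MGL KO replicate 1) and 1.89 (without WT replicate 3), and the adjusted p between 0.189 and 0.764. Of its exon bases, 11.2% are shared with the long noncoding gene Gm71524 on the opposite strand.

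Set against the muscle content of each library, Myl10 was apart as well. Per 1000 normalized CPM of the fast fiber markers, Myl10 was at 1.02, 0.495, 0.459 and 0.575 in MGL KO replicates 1 to 4 and at 0.194, 0.185, 0.221 and 0.128 in WT replicates 1 to 4. The same held against its nearest relative, with 5.32 to 13.7 counts of Myl10 per 1000 counts of Mylpf in MGL KO and 1.97 to 3.23 in WT. On neither scale did the groups overlap. Myl10 was chosen with its difference in these libraries known, and both divisors overlapped between the groups. The separation on these scales is therefore no further support. How many of all genes are apart on such scales was not counted. Within the regulatory chains, Myl10 held 0.299% to 0.767% of the length-scaled counts in MGL KO and 0.111% to 0.182% in WT, so that it was a minor chain beside Mylpf in every library. With canonical transcript lengths, these shares were 0.562% to 1.43% and 0.209% to 0.342%.

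**Figure D2:**
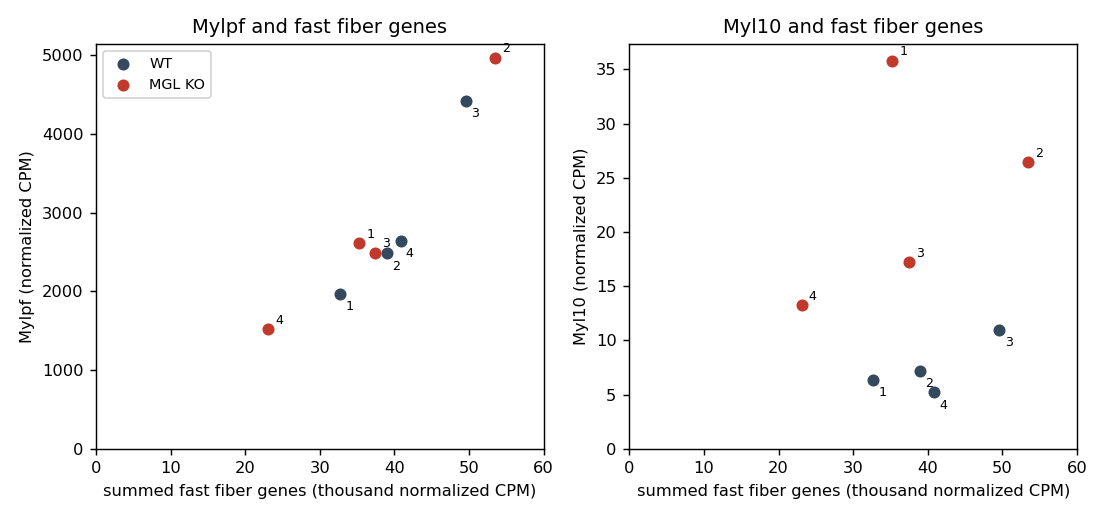
Normalized CPM of Mylpf (left) and Myl10 (right) against the summed normalized CPM of 12 fast fiber markers (in units of 1000 CPM), 1 point per library with its replicate number, WT dark and MGL KO red. Mylpf follows the fast fiber sum in both groups, whereas the 4 MGL KO libraries lie above the WT libraries for Myl10 over the whole range of muscle content.

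Myl7, the atrial regulatory chain at chr11:5845449-5848792 on the reverse strand, was at 2.57, 1.44, 2.34 and 187.3 normalized CPM in MGL KO replicates 1 to 4. In WT replicates 1 to 4 it was at 0.948, 3.42, 0.526 and 2.41. A single library, MGL KO replicate 4, was high, and the other 3 MGL KO libraries fell inside the WT range. The log2 fold change of 4.72 (standard error 1.68) became 0.22 without that library, where the MGL KO mean was 2.12 ± 0.60 (SD, n = 3) against 1.83 ± 1.34 in WT (SD, n = 4).

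Myl2, the regulatory chain of slow fibers and ventricle at chr5:122238848-122251545 on the forward strand, had 3 counts in MGL KO replicate 2, 1 in MGL KO replicate 4 and 0 in the other 6 libraries. These values are at or under the level of 3 counts, so no fold is given, and a level up to that limit could be missed in a library at this depth. Only 1.58% of its exon bases are shared with another gene. Its essential chain partner Myl3 was by contrast among the most abundant of the group, and the slow fiber markers were uneven as well. Myh7, the slow heavy chain, was at 1.06 to 7.50 and Tnnc1, the slow troponin C, at 0.112 to 2.62 normalized CPM outside MGL KO replicate 4, where they reached 16.6 and 30.7, while Myoz2, a Z-disc protein of slow fibers, was at 85.0 to 496.8 over all 8 libraries.

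Among the essential chains, Myl3, used in slow fibers and ventricle, lies at chr9:110570929-110599396 on the forward strand. Its normalized CPM was 2339, 4444, 2134 and 1442 in MGL KO replicates 1 to 4 and 1783, 2220, 3312 and 2130 in WT replicates 1 to 4. The WT libraries lay within the range of the MGL KO libraries. The means were 2590 ± 1294 and 2361 ± 661 (SD, n = 4). On the log2 scale the difference was 0.13 (standard error 0.34), and it turned to -0.26 without MGL KO replicate 2 and was 0.35 without WT replicate 3.

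Myl1, the essential chain of fast fibers, lies at chr1:66963454-66984642 on the reverse strand and shares no exon base with another gene. Its normalized CPM was 1601, 3506, 1708 and 898 in MGL KO replicates 1 to 4 and 1168, 1610, 2693 and 1607 in WT replicates 1 to 4. The order of libraries resembled that of Mylpf and Myl3, with MGL KO replicate 2 and WT replicate 3 on top and the groups overlapping. The means were 1928 ± 1111 and 1769 ± 650 (SD, n = 4). On the log2 scale the difference of 0.12 (standard error 0.41) turned to -0.33 without MGL KO replicate 2 and was 0.41 without WT replicate 3.

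The 3 abundant chains kept nearly constant proportions while their levels moved between libraries. From the lowest to the highest of the 8 libraries, the normalized CPM of Mylpf spanned 3.27-fold, that of Myl3 3.08-fold and that of Myl1 3.90-fold. The ratio of Myl3 to Myl1 counts ran only from 1.23 to 1.61, that of Mylpf to Myl1 from 1.42 to 1.69 and that of Mylpf to Myl3 from 1.05 to 1.33. Scaled by length, Myl3 made up 52.2% to 57.5% and Myl1 39.5% to 47.6% of the essential chains.

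Myl4, the essential chain of atrium and of developing skeletal muscle, lies at chr11:104440903-104486603 on the forward strand. It was at 20.6, 41.1, 21.0 and 206.2 normalized CPM in MGL KO replicates 1 to 4 and at 19.5, 22.7, 32.4 and 27.8 in WT replicates 1 to 4. As for Myl7, MGL KO replicate 4 was far above the rest, and the remaining MGL KO libraries overlapped WT. The log2 fold change of 1.50 (standard error 0.72) became 0.10 without that library, with 27.6 ± 11.7 (SD, n = 3) in MGL KO and 25.6 ± 5.67 (SD, n = 4) in WT. Myl4 made up 0.234% to 0.336% of the essential chains per length in 7 libraries and 3.86% in MGL KO replicate 4, and Myl7 likewise made up at most 0.0671% of the regulatory chains in 7 libraries and 5.63% in that one. With canonical transcript lengths, the shares in that library were 8.71% for Myl4 and 13.4% for Myl7, against at most 0.807% and 0.175% in the others.

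The cardiac muscle markers were high in MGL KO replicate 4, as the atrial chains were. Among the other 7 libraries, Myl7 was highest in WT replicate 2 (3.42 normalized CPM), which had the lowest cardiac sum (6.91). Myl4 was highest among them in MGL KO replicate 2 (41.1), where the cardiac sum was 21.5. In MGL KO replicate 4, the atrial heavy chain gene Myh6 was at 1170 normalized CPM against at most 9.06 elsewhere, cardiac troponin I, Tnni3, at 106.3 against at most 2.80, and cardiac myosin binding protein C, Mybpc3, at 65.5 against at most 0.632. Nkx2-5, a transcription factor gene of the heart, was at 2.42 normalized CPM there and at 0 counts in the other 7 libraries, and Nppa, which encodes the atrial natriuretic peptide, was at 6.52 against at most 0.130. All 9 cardiac markers were at their highest in that library. There, Myl7 had 0.909 counts for each count of Myl4, against 0.0162 to 0.151 in the others. The part of the cardiac or airway signal in the values of Myl7 and Myl4 was not tested.

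**Figure D3:**
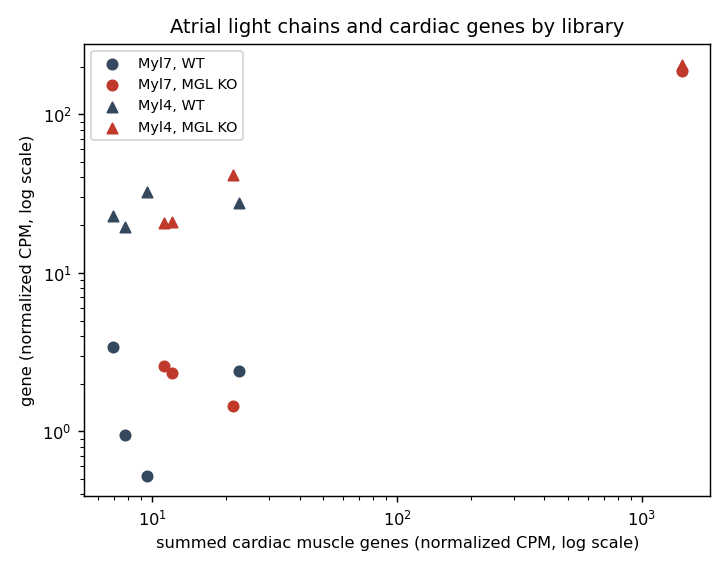
Normalized CPM of Myl7 (circles) and Myl4 (triangles) against the summed normalized CPM of 9 cardiac muscle markers, both on log scales, with WT dark and MGL KO red. MGL KO replicate 4, at a cardiac sum of 1457, holds the highest value of both genes, and the other 7 libraries lie at cardiac sums of 6.91 to 22.6.

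Mylk2, the light chain kinase of skeletal muscle, lies at chr2:152753232-152766628 on the forward strand. It was at 605.5, 607.7, 526.0 and 327.2 normalized CPM in MGL KO replicates 1 to 4 and at 362.6, 389.9, 577.1 and 388.6 in WT replicates 1 to 4. The lowest library was MGL KO replicate 4 and the WT libraries other than replicate 3 were close together, so the groups overlapped. The means were 516.6 ± 131.9 and 429.6 ± 99.2 (SD, n = 4), and the fitted log2 difference was 0.27 (standard error 0.23). It was 0.45 without WT replicate 3, 0.43 without MGL KO replicate 4 and 0.18 without MGL KO replicate 2.

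Mylk4, a striated muscle member of the kinase family, lies at chr13:32884810-32968052 on the reverse strand. Its normalized CPM was 376.1, 253.1, 297.6 and 213.0 in MGL KO replicates 1 to 4 and 400.6, 477.4, 418.4 and 513.5 in WT replicates 1 to 4. Every MGL KO library was below every WT library, as for 3.3% of all genes tested, the nearest being MGL KO replicate 1 and WT replicate 1. The means were 285.0 ± 69.9 in MGL KO and 452.5 ± 52.3 in WT (SD, n = 4). Mylk4 thus differed by -0.67 on the log2 scale (standard error 0.18; adjusted p = 0.478 in edgeR's quasi-likelihood test), a value that lay between -0.83 and -0.55 with 1 library left out.

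The Mylk4 groups were also separate relative to the other skeletal kinase, and overlapped through 1 WT library relative to the fast fiber markers. Counts of Mylk4 per count of Mylk2 were 0.621, 0.417, 0.566 and 0.651 in MGL KO replicates 1 to 4 and 1.10, 1.22, 0.725 and 1.32 in WT replicates 1 to 4, with no overlap. Per 1000 normalized CPM of the fast fiber markers, Mylk4 was at 4.74 to 10.7 in MGL KO and 8.44 to 12.6 in WT, where the ranges overlapped because of WT replicate 3, the lowest WT library on both scales. The log2 difference was -0.48 on that scale, and -0.67 with muscle content as a covariate, as without it.

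Mylk3, known as the cardiac light chain kinase, lies at chr8:86049783-86112974 on the reverse strand. Its normalized CPM was 202.2, 229.7, 170.2 and 181.0 in MGL KO replicates 1 to 4 and 156.6, 155.5, 168.6 and 163.5 in WT replicates 1 to 4. The groups did not overlap, MGL KO being higher as for 2.72% of all genes tested, but MGL KO replicate 3 and WT replicate 3 nearly met. The means were 195.8 ± 26.3 in MGL KO and 161.0 ± 6.18 in WT (SD, n = 4), and the fitted log2 difference was 0.28 (standard error 0.12, adjusted p = 0.559 in edgeR's quasi-likelihood test). Per 1000 normalized CPM of the fast fiber markers, Mylk3 was at 5.74, 4.30, 4.55 and 7.84 in MGL KO replicates 1 to 4 and at 4.78, 3.99, 3.40 and 4.01 in WT replicates 1 to 4. The groups overlapped on this scale, and MGL KO replicate 4, the library with the cardiac markers and the lowest fast fiber sum, was the highest, which it was not in normalized CPM. The log2 difference there was 0.47, or 0.26 without that library, a setting added after the data were seen.

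Per length, Mylk2 held 49.7% to 59.9% of the kinase transcripts in MGL KO and 42.2% to 55.2% in WT. Mylk4 held 18.2% to 25.5% in MGL KO and 29.2% to 40.6% in WT, without overlap. Mylk3 held between 15.6% and 26.6% over all libraries, its highest share being in MGL KO replicate 4, where Mylk2 and Mylk4 were at their lowest in normalized CPM. The shares depended on the length used, and with canonical transcripts Mylk2 held 36.8% to 50.8% and Mylk3 24.8% to 39.3% over all libraries, while Mylk4 held 15.8% to 22.7% in MGL KO and 26.4% to 36.3% in WT.

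**Figure D4:**
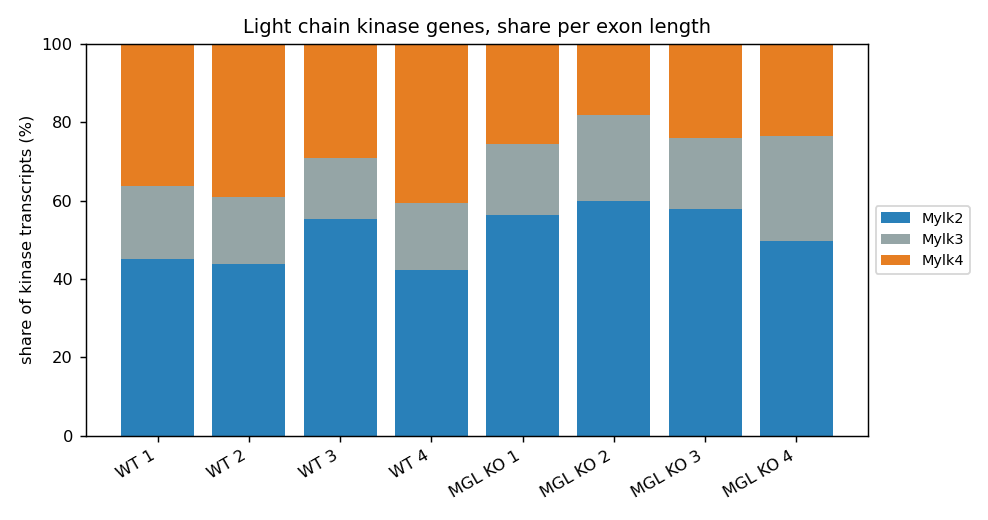
Share (%) of Mylk2, Mylk3 and Mylk4 in the counts of the 3 kinases scaled by exon length, 1 stacked bar per library. Mylk4 takes 29.2% to 40.6% in the 4 WT libraries and 18.2% to 25.5% in the 4 MGL KO libraries.

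Over the group, 0 of 9 tested genes passed an adjusted p of 0.05 in edgeR's quasi-likelihood test, where 0.0471% of all genes did. Myl10 alone passed in edgeR's exact test, where 0.431% of all genes did, and in DESeq2, where 0.981% of the 14069 genes with an adjusted p did and Myl7 had none, while limma-voom called 0 of the group and 0.168% of all genes. An unadjusted p under 0.05 was reached by 4 of 9, namely Myl10, Myl7 and Mylk3 on the higher and Mylk4 on the lower side, against 8.65% of all genes (4.35% higher and 4.29% lower in MGL KO). This count was 2 without WT replicate 1, without WT replicate 3 or with the replicate number as a block, and 2 to 5 over all fits that left out 1 library. Without MGL KO replicate 4 it was 4, with Mylk2 in place of Myl7. The groups did not overlap for 3 of 9, Myl10 and Mylk3 with higher and Mylk4 with lower values in MGL KO, against 6.02% of all genes (2.72% higher and 3.3% lower). The log2 fold change was positive for 8 of 9 with a median of 0.27, which was 0.32 without MGL KO replicate 4 and ranged from 0.18 (without MGL KO replicate 2) to 0.41 (without WT replicate 3), beside 7884 of 14864 and a median of 0.02 for all genes. Since Myl10 was known to differ when the group was chosen, nothing is read from these counts.

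**Figure D5:**
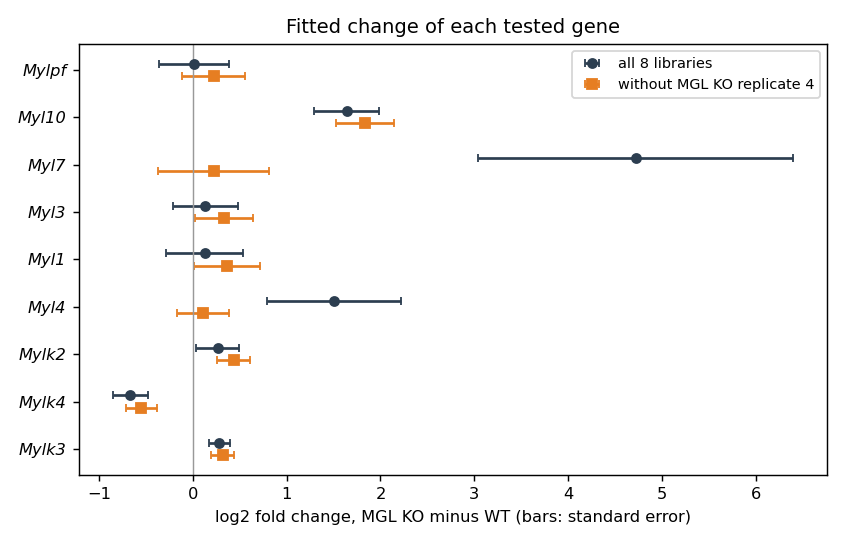
Log2 fold change (MGL KO minus WT) of the 9 tested genes in edgeR's quasi-likelihood fit with all 8 libraries (dark circles) and without MGL KO replicate 4 (orange squares), with standard errors as bars. Myl7 moves from 4.72 to 0.22 and Myl4 from 1.50 to 0.10 when that library is left out, and all 9 genes keep their sign.

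The genes that varied together with each light chain were sought in the deviations of log2 CPM from the group means over the 8 libraries, which leave out the difference between the genotypes. These correlations share libraries, depth and muscle content and are given as a description. Myl1 and Mylpf had r = 0.99 (rho = 0.79, r = 0.99 without the 2 libraries farthest from the median) and Myl3 and Mylpf r = 0.99 (rho = 0.93, r = 0.98 without 2). Mylk2 followed Mylpf with r = 0.88 (rho = 0.90, r = 0.90 without 2), whereas Mylk4 had r = 0.15 with Mylpf (rho = 0.40, r = 0.94 without 2), a value that rested on the 2 libraries left out.

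Myl10 followed Mylk2 with r = 0.87 (rho = 0.81, r = 0.80 without 2) and Mylpf with r = 0.68 (rho = 0.69, r = 0.81 without 2). The 5 genes most like Myl10 among all tested were Acvr1 (r = 0.98), Zfas1 (0.97), Ssna1 (0.96), Rpl14 (0.96) and U2af1 (0.96). For the other genes the nearest were Myoz1 for Mylpf, Foxn3 for Myl3, Rpl3l for Myl1, Alas1 for Myl4, Fhad1 for Myl7, 4930429F24Rik for Mylk2, Tomm22 for Mylk3 and Trmt11 for Mylk4, each at r = 0.99 or 1.00 over 8 libraries. Without MGL KO replicate 4, a check added after the data were seen, r was 0.98 for Alas1 and Myl4, 1.00 for Fhad1 and Myl7, and 0.94 to 1.00 for all 13 pairs. Each was picked as the highest among 14864 genes.

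The embryonic heavy chain Myh3 is, like Myl10, on the study's list of genes that differ. It had the same separation of groups, as did 2.72% of all genes tested. It was at 44.7, 61.4, 41.1 and 31.0 normalized CPM in MGL KO replicates 1 to 4 and at 8.48, 6.74, 13.1 and 12.8 in WT replicates 1 to 4, every MGL KO library being higher. It differed by 2.11 on the log2 scale (standard error 0.27), with an adjusted p of 0.0535 in edgeR's quasi-likelihood test, and of 0.0532 to 0.274 with 1 library left out. Myh3 was called by the exact test, DESeq2, limma-voom, the fit with library size alone and that with muscle content as a covariate. Within groups, the deviations of Myl10 and Myh3 were less alike than those of Myl10 and Mylk2 (r = 0.45, rho = 0.43, r = 0.36 without 2), a difference that was not tested.

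The remaining muscle markers gave the surroundings of these genes. Among all genes tested, 8.65% had an unadjusted p under 0.05, beside which the counts for the lists below stand. Of 12 fast fiber markers, 0 passed an adjusted p of 0.05 in edgeR's quasi-likelihood test, 2 had an unadjusted p under 0.05, both with lower values in MGL KO (Myh4, the fastest heavy chain, log2 fold change -1.33, and Mybpc2, fast myosin binding protein C, -0.54), and the median log2 fold change was 0.01, or -0.26 to 0.15 with 1 library left out. Of 6 slow fiber markers, 0 passed, 1 had an unadjusted p under 0.05 and the median was 0.90, which ranged from 0.39 (without MGL KO replicate 2) to 1.12 with 1 library left out. The 1 marker was Tnnc1, at a log2 difference of 2.89 that was 0.45 without MGL KO replicate 4. Of 11 tested markers of developing or regenerating muscle, 0 passed and the median was -0.04, which turned to 0.11 without MGL KO replicate 4. Of these, 3 had an unadjusted p under 0.05. One was Tnnt2, cardiac troponin T, whose log2 difference of 1.76 was 0.36 without that library. The other 2, Myh3 and the myogenic factor gene Myod1, were called by the exact test and by DESeq2, and Myh3 by limma-voom. In the other lists, including those described next, these 3 tests called 0 genes, but DESeq2 gave no adjusted p for 4 of 5 cardiac and 4 of 6 airway markers, for Tnnc1, for Tagln of the smooth muscle markers, and for Tnnt2 and Mymk of the developing muscle markers.

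Of 5 tested cardiac markers, 0 passed, 4 had an unadjusted p under 0.05, and the median of 2.96 dropped to 0.17 without MGL KO replicate 4. Markers of tissues other than striated muscle were likewise without a call in edgeR's quasi-likelihood test. The medians were -0.05 for 6 smooth muscle markers (-0.21 to 0.19 with 1 library left out) and 0.06 for 6 squamous markers (-0.15 to 0.28), with 0 at an unadjusted p under 0.05 in either list, and 3.32 for 6 tested airway markers, or -0.04 without MGL KO replicate 4, with 3 at that level. One fast fiber marker, Tnnc2, fast troponin C, was at only 1.10 to 3.52 normalized CPM, and 68.7% of its exon bases are shared with Ube2c on the opposite strand. Tagln, a smooth muscle marker counted in the median above, was likewise at only 0.361 to 1.11 normalized CPM, and shares 66.7% of its exon bases with Pcsk7 or Gm48529 on the opposite strand.

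The nonmuscle and smooth muscle light chains and the machinery of light chain phosphorylation were compared as 17 further genes, all tested. They comprised the essential chains Myl6 and Myl6b, the regulatory chains Myl9, Myl12a and Myl12b, the smooth muscle kinase gene Mylk, subunits of myosin phosphatase and its inhibitor gene Ppp1r14a, the kinases Rock1, Rock2 and Dapk3, and 3 calmodulin genes. In edgeR's quasi-likelihood test 0 of 17 passed an adjusted p of 0.05, the log2 fold change was positive for 12, and its median was 0.15, or 0.04 (without WT replicate 1) to 0.22 (without WT replicate 3), beside 0.02 for all genes. Calm2 was the only 1 of 17 with an unadjusted p under 0.05, which 8.65% of all genes reached. It was at 306.7, 359.2, 288.3 and 309.3 normalized CPM in MGL KO replicates 1 to 4 and 256.9, 240.9, 258.4 and 256.9 in WT replicates 1 to 4. Calm2 was also the only 1 of 17 whose groups did not overlap, beside 6.02% of all genes. Its log2 fold change was 0.32 (standard error 0.11, adjusted p = 0.503 in edgeR's quasi-likelihood test). Nothing is read from these counts. For Mylk itself the log2 difference was 0.07 (standard error 0.28) and for Myl9 -0.04 (standard error 0.26), both smaller than their errors.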

How the data were processed

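Poly(A)-selected RNA of 8 frozen mouse esophagus samples, 4 MGL KO and 4 WT by the genotype label, was analyzed. Per the submitters' processing notes, reads were checked with FastQC 0.11.9, trimmed with Cutadapt and aligned to GRCm39 with STAR 2.7.10b. The authors deposited raw counts per gene symbol and library, without normalization. The counting tool, the annotation and the use of strand are not given in the sources used here.

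With edgeR 4.0.16 in R 4.3.3, the filterByExpr function with its minimum count set to 10 retained 14864 genes and 98.1% to 99.9% of the counts of a library. Normalized CPM used TMM factors. The genotypes were compared by quasi-likelihood F tests over all genes, with Benjamini-Hochberg adjustment at 0.05. Standard errors are the size of a log2 fold change over the root of its F statistic. The alternatives were edgeR's exact test, which the study's methods name, DESeq2 1.42.0, limma-voom 3.58.1 with quality weights, other scaling, filter and threshold settings, muscle content as a covariate or divisor, the replicate number as a block, other gene lengths, and each library left out. No pair of replicates was alike within sampling noise. Lengths, loci and sequences came from GRCm39 with GENCODE release M39, where 30742 symbols (93.6%) were found.

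In simulated data for this comparison (14864 genes, 200 changed), the quasi-likelihood test recovered 50% of genes changed by 1 and 82% of those changed by 2 on the log2 scale, with 2.94% of calls false. False calls were 12.4% in the exact test, 21.6% in DESeq2 and 3.01% in limma-voom. These rates came from a single simulated set in which genes varied independently of one another. It held no library like MGL KO replicate 4 and no shared muscle content, so the rates may not carry over to the measured libraries. Genes and lists were chosen with earlier results of these data known. The text names Mgll, the 10 genes, Myh3, list genes behind a count, extreme or call, and the genes most correlated with each. Depth limits cover counting error only.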

Additional observations from a re-analysis of the deposited data

Results flagged for a closer look

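In 53 groups of 4 values, a library was singled out when its gap to the nearest other library exceeded the 95% limit of Dixon's test for the group's range. This applied to 9 values, where chance would give about 2.65 at 1 in 20. The groups are not separate measurements, since ratios reuse the values of single genes and all come from the same libraries. The excess over chance is therefore only a guide. MGL KO replicate 4 accounted for 5 of the 9 values. It was above its group for Myl7 (187.3 normalized CPM, the nearest being 2.57), Myl4 (206.2, nearest 41.1), the cardiac muscle sum (1457, nearest 21.5), the airway sum (5254, nearest 47.3) and the ratio of Myl7 to Myl4 counts (0.909, nearest 0.125).

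WT replicate 3 was above its group for Mylk2 (577.1 normalized CPM, nearest 389.9) and below it for Mylk4 per 1000 normalized CPM of the fast fiber markers (8.44, nearest 12.2). The cardiac muscle sum was higher in WT replicate 4 than in the other WT libraries (22.6 normalized CPM, nearest 9.53). MGL KO replicate 3 lay above its group for the smooth muscle sum (2001 normalized CPM, nearest 1518).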

How the results depend on the processing

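The number of genes that differed between MGL KO and WT was 7, and it was 64 in edgeR's exact test, 138 in DESeq2, 25 in limma-voom with quality weights, 13 at an adjusted p under 0.1, 4 with the muscle covariate, 2 without a filter and 2 to 5 with 1 library left out. With library size alone it was 6, of which 5 were higher in MGL KO (3 of 7 with TMM), and the median gene moved from 0.02 to -0.03. Of the 10 light chain and kinase genes, 0 were called, and 1, Myl10, in the exact test and in DESeq2. In the other lists 0 genes were called, 2 in the exact test, 2 in DESeq2, and 1 each in limma-voom, with library size alone and with the muscle covariate. The canonical transcript length changed 4 ranks of the order per length. What caused these shifts was not tested, apart from the looser threshold, which cannot admit fewer genes by construction.

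Replicate numbers did not pair the libraries, the correlations of same-numbered deviations being -0.14, -0.28, -0.14 and 0.08. With the replicate number as a block, 2 genes and 0 light chain or kinase genes were called, and the log2 fold change of Myl7 was 2.19.

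Log2 fold changes that moved beyond the spread were those of Myl4 (0.25 in limma-voom) and Myl7 (1.01 in limma-voom), both also without MGL KO replicate 4 as given above, and of Mylk3 (0.47 per fast fiber sum). Over 16 alternatives the sign changed in 8 for Mylpf, 3 for Myl1 and 2 for Myl3, and in 0 for the other 6 tested genes. With 4 libraries a group, differences of the size seen for the abundant chains were within their spread, and Myl2 was too low to compare.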
